A study of Homo sapiens with 12 samples.

Results

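The mitochondrial ribosomal protein genes were followed here through 2 perturbations of MOLM-14 cells, an established line of human acute myeloid leukemia with a KMT2A fusion and a duplicated stretch in FLT3. The members are all protein-coding genes whose symbol starts with MRPL or MRPS followed by a digit. Of 164 genes with such a symbol, 78 were protein-coding and were kept, while the others, 74 of them processed pseudogenes, were left out. The 78 members stood among 61906 genes in the count tables, and by symbol 49 belonged to the large subunit (MRPL) and 29 to the small subunit (MRPS).

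RNA was sequenced from 4 groups of 3 libraries, which the labels call biological replicates without saying whether they came from separate cultures, so that p-values measure the spread between these libraries. Cells carrying a lentiviral shRNA against DDX5 (shDDX5) were compared with cells carrying a control shRNA (shControl), both harvested 96 hours after infection. Cells given RX-5902 at 100 nM were compared with cells given 0.1% DMSO, both for 6 hours. DDX5 is an RNA helicase of transcription and splicing, and RX-5902 is a small molecule described as binding its phosphorylated form. The knockdown rests on cells of 1 line, with no rescue of DDX5 analysed here, and the drug on 1 dose and 1 time.

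Mitochondria keep a ribosome of their own, built from 2 rRNAs made from mitochondrial DNA and from proteins encoded in the nucleus, made in the cytosol and imported. This ribosome makes the 13 proteins of the respiratory chain and ATP synthase that mitochondrial DNA encodes. Roughly speaking, MRPL proteins build the subunit that forms peptide bonds and MRPS proteins the subunit that reads the mRNA. Some members descend from bacterial ribosomal proteins and others are particular to mitochondria. Acute myeloid leukemia cells have been described as sensitive to the loss of mitochondrial translation.

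The libraries held 17603589 to 19674098 counts in the knockdown experiment and 20264250 to 20367575 in the drug experiment, and the members took 0.340 to 0.455% of them. DDX5 stood at 159, 164 and 161 CPM (counts relative to library size, scaled by edgeR's TMM) in the shDDX5 libraries, against 755, 718 and 729.5 CPM in the shControl libraries, a log2 fold change of -2.19 (standard error 0.08, edgeR adjusted p = 3.44e-06). With RX-5902 it was higher, by 0.31 on the log2 scale (edgeR adjusted p = 1.47e-08). Replicate 1 of shDDX5 stood apart from its 2 partners: the chi-square per gene was 46.3 and 46.4 in these pairs, against 1.68 to 5.93 in all other pairs of replicates. Knockdown counts are therefore given with and without that library. Exceptions are counts from fits with a length trend removed, with another library left out or with other processing. These keep shDDX5 replicate 1 unless said otherwise. All 8 myeloid markers were present in every group. Their summed level was 13146 to 14518 CPM in shDDX5 libraries and 4101 to 4475 CPM in shControl libraries, most of it in both groups from LYZ. It was 1506 to 1562 CPM with RX-5902 and 1442 to 1464 CPM with DMSO. The single myeloid markers moved in both directions. PTPRC, FLT3, HOXA9 and MEIS1 had lower means in shDDX5 than in shControl libraries, and CD33, SPI1, MPO and LYZ higher means. PTPRC, SPI1, HOXA9 and MEIS1 had higher means with RX-5902 than with DMSO, and CD33, MPO, LYZ and FLT3 lower means. The 3 erythroid markers summed to at most 0.0959 CPM and the 3 B cell markers to 0.454 to 0.792 CPM in shDDX5, 0.641 to 1.19 CPM in shControl, 1.79 to 1.89 CPM in RX-5902 and 1.06 to 1.36 CPM in DMSO libraries, with HBB and MS4A1 at 0 in all 4 groups. The 4 T and NK cell markers summed to 95.9 to 145 CPM in shDDX5 and 52.2 to 57.0 CPM in shControl libraries. They summed to 23.2 to 25.7 CPM with RX-5902 and 15.3 to 16.2 CPM with DMSO. Most of each sum came from NKG7, at a mean of 113 CPM in shDDX5 and 53.2 CPM in shControl libraries. NKG7 had a mean of 24.1 CPM with RX-5902 and 15.9 CPM with DMSO. CD3D went the other way in the knockdown, at a mean of 0.237 CPM in shDDX5 and 1.42 CPM in shControl libraries. CD8A was at 0 in shDDX5 and shControl libraries, CD3E in shDDX5 libraries, and both CD3D and CD3E with RX-5902 and with DMSO. The 4 fibroblast markers summed to 4.43 to 7.19 CPM in shDDX5 and 1.53 to 2.07 CPM in shControl libraries, and to 0.959 to 1.40 CPM with RX-5902 and 0.404 to 0.602 CPM with DMSO, with DCN at 0 throughout. COL1A1 had a mean of 4.76 CPM in shDDX5 and 0.577 CPM in shControl libraries, while PDGFRB had 1.08 and 1.04 CPM and COL1A2 0.290 and 0.0991 CPM. The 4 epithelial or packaging cell markers summed to 6.90 to 8.75 CPM in shDDX5 and 9.96 to 11.2 CPM in shControl libraries, and to 18.0 to 20.4 CPM with RX-5902 and 4.21 to 4.85 CPM with DMSO, with EPCAM at 0 except with RX-5902. In the knockdown they moved in both directions: KRT8 had means of 6.18 CPM in shDDX5 and 3.41 CPM in shControl libraries, KRT18 0.240 and 0.116 CPM, and L1CAM 1.62 and 7.04 CPM. L1CAM had means of 18.5 CPM with RX-5902 and 3.82 CPM with DMSO, and KRT8 0.900 and 0.605 CPM. The part of these markers in the results below was not tested.

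In each experiment 76 of the 78 members passed edgeR's filter on low counts, 48 of the large and 28 of the small subunit. The 2 that did not were MRPL53, listed at 0 in all 12 libraries, and MRPS24, at 0.148 to 0.767 CPM. Both share exon bases with neighbours: 72.8% of the exon bases of MRPL53 also belong to CCDC142, and 23.2% of those of MRPS24 to a read-through gene that joins URGCP and MRPS24. How reads in shared exons were assigned, and whether the counting used strand, is not given in the sources used here. In all, 41 members share exon bases with another annotated gene and 17 share at least 20% of theirs, so their levels are less certain.

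Levels per length were compared in control libraries, as CPM per kilobase of exon, which allows different genes to be set side by side. The 2 tables were scaled separately. The median over members was 18.6 CPM per kilobase for the large and 14.7 for the small subunit. The highest large subunit member by the mean of both control groups was MRPL18, whose bacterial counterpart binds 5S rRNA. MRPL18 stood at 64.1, 57.9 and 60.8 CPM per kilobase in shControl and at 91.0, 97.7 and 90.5 in DMSO libraries. The next, MRPL51, stood at 66.3, 69.1 and 71.2 in shControl and at 62.2, 64.1 and 64.7 in DMSO libraries. The order of these 2 genes therefore turned between the experiments, with no overlap in either. MRPL3, a protein close to the peptidyl transferase centre, came after them at 58.6, 57.9 and 58.6 in shControl libraries, within the range of MRPL18 there, and at 67.2, 59.4 and 68.3 in DMSO libraries, which spans the values of MRPL51.

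In the small subunit MRPS21, with a bacterial counterpart, led at 78.5, 83.3 and 82.9 CPM per kilobase in shControl and 70.3, 70.7 and 72.9 in DMSO libraries. MRPS18B followed at 55.2, 56.9 and 58.2 in shControl and 65.5, 67.9 and 61.5 in DMSO libraries, below MRPS21 in every library. MRPS10, which lies in the head of the small subunit in bacteria, had 52.8, 47.8 and 49.5 in shControl and 51.3, 52.5 and 56.6 in DMSO libraries, again without overlap with the gene above it, while MRPS12, next below, overlapped it in shControl libraries. At the low end stood, beside MRPL53 and MRPS24, MRPL38 at 1.40, MRPL46 at 1.41, MRPS5 at 1.48 and MRPS17 at 2.60 CPM per kilobase as the mean of both control groups. MRPL38 and MRPL46 exchanged places between the experiments: MRPL38 had 1.17 to 1.33 in shControl and 1.53 to 1.60 in DMSO libraries, and MRPL46 0.809 to 1.05 in shControl and 1.64 to 2.01 in DMSO libraries. Across the 76 tested members the log2 levels in shControl and DMSO libraries went together (Pearson r 0.94, Spearman rho 0.95, across genes, which are not independent replicates).

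Promoter sequences from RefSeq (GRCh38.p14, 250 bases before to 50 after each start) were found for 69 of the 78 members and searched on both strands for 4 short strings, each a core of the known site of a factor. CCGGAAG, a core of ETS sites, was in 29 of the 69 (42.0%), against 10.3% of all 35116 promoters and 12.8% of those of protein-coding genes. AAGATGGCG, a core of YY1 sites, was in 13 (18.8%), against 1.75 and 2.41%. TGCGCA, within the site of NRF1, was in 14 (20.3%), against 8.24 and 9.88%, and CACGTG, the E-box, in 6 (8.70%), against 7.26 and 8.34%. A match is a string in a window and not a site shown to be bound.

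The promoters of 5 members with large changes are shown as examples, not as a ranking. MRPL24 and MRPS12 were among the members that fell most with RX-5902, and MRPL19 fell most in the large subunit in the knockdown. MRPL57 and MRPS10 rose in the knockdown, MRPL57 by the most of all members. Not shown are MRPS25, which fell more than MRPS12 with RX-5902, and MRPS28, which fell most of all members in the knockdown. Capitals mark the strings above, and each line runs 5′ to 3′ on the strand of the gene.
MRPL24 (chr1:156741039-156741338, minus strand): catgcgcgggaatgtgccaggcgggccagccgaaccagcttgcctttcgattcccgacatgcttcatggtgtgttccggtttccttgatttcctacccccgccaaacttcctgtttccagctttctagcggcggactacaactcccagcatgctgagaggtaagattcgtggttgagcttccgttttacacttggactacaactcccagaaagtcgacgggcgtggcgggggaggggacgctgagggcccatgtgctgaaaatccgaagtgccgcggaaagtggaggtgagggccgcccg
MRPS12 (chr19:38930694-38930993, plus strand): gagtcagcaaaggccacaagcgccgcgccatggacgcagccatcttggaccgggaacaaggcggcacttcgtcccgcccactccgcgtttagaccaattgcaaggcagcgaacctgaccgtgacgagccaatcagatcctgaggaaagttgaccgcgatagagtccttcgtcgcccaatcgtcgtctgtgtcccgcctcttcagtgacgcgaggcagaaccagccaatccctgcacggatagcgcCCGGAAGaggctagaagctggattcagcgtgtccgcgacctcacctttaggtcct
MRPL19 (chr2:75646533-75646832, plus strand): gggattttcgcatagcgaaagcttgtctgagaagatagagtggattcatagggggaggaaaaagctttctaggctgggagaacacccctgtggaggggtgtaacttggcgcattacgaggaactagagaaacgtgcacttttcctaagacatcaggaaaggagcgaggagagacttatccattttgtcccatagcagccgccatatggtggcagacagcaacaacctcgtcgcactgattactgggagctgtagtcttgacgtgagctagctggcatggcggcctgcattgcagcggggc
MRPL57 (chr13:21176408-21176707, plus strand): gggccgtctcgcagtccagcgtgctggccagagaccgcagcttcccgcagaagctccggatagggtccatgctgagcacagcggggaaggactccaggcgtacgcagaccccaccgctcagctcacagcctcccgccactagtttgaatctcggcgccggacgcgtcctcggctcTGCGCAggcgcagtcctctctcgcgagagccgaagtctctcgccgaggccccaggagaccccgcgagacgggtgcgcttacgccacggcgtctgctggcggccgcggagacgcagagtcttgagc
MRPS10 (chr6:42217812-42218111, minus strand): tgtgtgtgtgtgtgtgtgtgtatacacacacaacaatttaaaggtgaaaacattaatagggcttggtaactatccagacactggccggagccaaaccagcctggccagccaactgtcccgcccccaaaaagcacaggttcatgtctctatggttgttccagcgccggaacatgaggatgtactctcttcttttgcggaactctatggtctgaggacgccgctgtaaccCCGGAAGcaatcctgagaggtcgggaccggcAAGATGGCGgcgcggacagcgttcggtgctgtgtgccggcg
MRPL24 and MRPL19 hold none of the 4 strings in this window, MRPS12 holds the ETS string, MRPL57 the NRF1 string, and MRPS10 the ETS and YY1 strings. The window of MRPL24 lies inside the gene as counted, whose 5′ end is at 156741590. Sequence around that end was not searched.

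With RX-5902 for 6 hours, 67 of the 76 tested members were lower and 2 were higher than with DMSO (edgeR adjusted p under 0.05 over all genes tested), and 7 were not called. Over all 13941 genes tested, 31.9% were called lower and 32.2% higher. The median log2 change was -0.43 over the members and 0.01 over all genes. Both subunits were lower to a like extent: 41 of 48 large subunit members fell and 1 rose, with a median of -0.44, and 26 of 28 small subunit members fell and 1 rose, with a median of -0.41. Tested against a fold of 1.2, 45 members were called lower (28 large and 17 small), with 18.8% of all genes called lower by that test. In 68 members all 3 RX-5902 libraries lay below all 3 DMSO libraries, which is 89.5% of the members tested and 33.4% of all genes tested. In bulk RNA, fewer cells of a type and less RNA per cell cannot be told apart, and CPM are shares of a library, not amounts per cell.

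**Figure D1:**
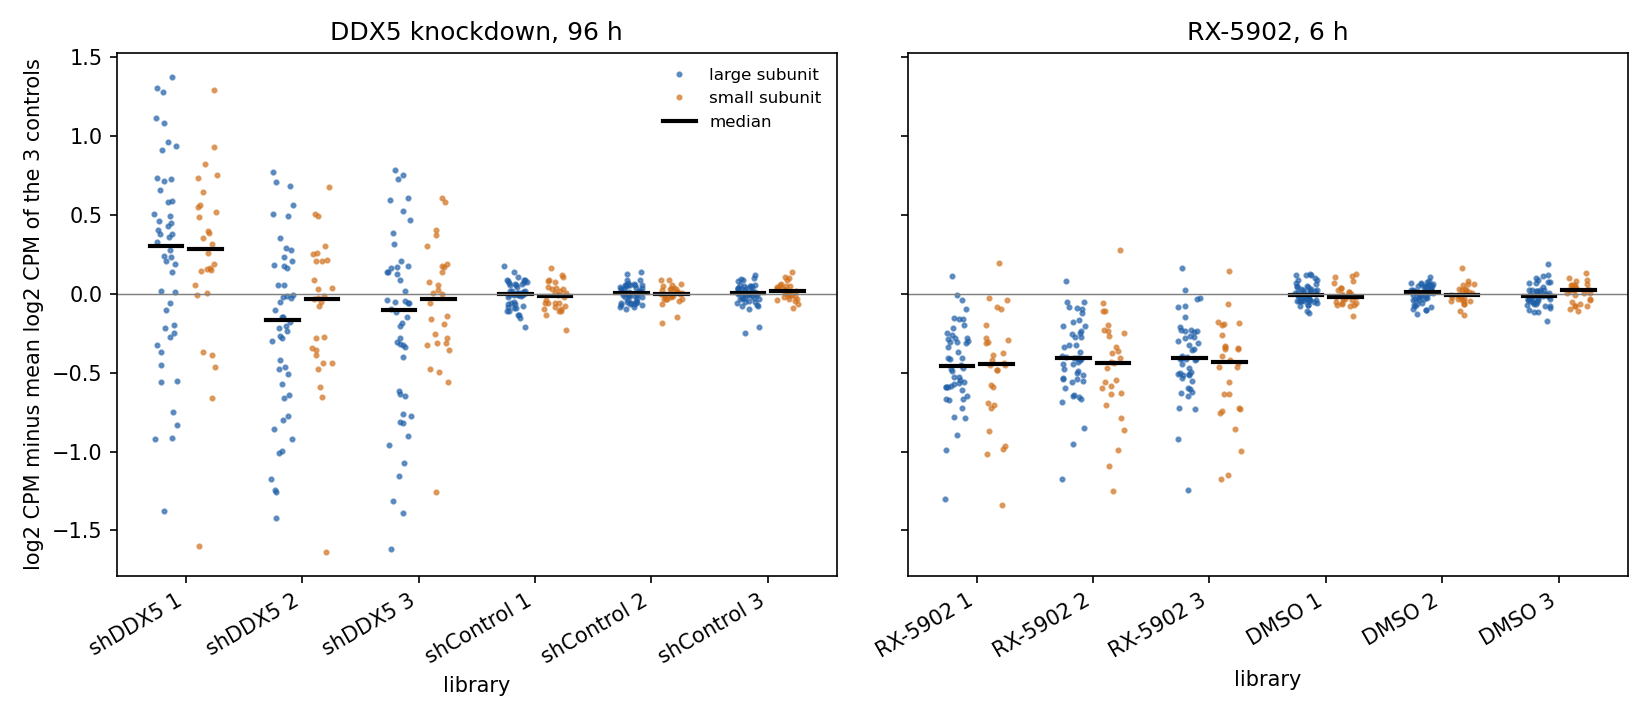
Each point is 1 member in 1 library, as log2 CPM minus the mean log2 CPM of the 3 control libraries of its experiment (vertical axis), by library (horizontal axis), with the large subunit in blue, the small subunit in orange and black bars at the medians. All 6 RX-5902 medians lie between -0.46 and -0.41, while in shDDX5 replicate 1 the medians are 0.31 and 0.29 and in replicates 2 and 3 between -0.16 and -0.03.

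Among large subunit members, the largest fall with RX-5902 was that of MRPL24, whose bacterial counterpart starts the assembly of the large subunit (chr1:156737303-156741590, GRCh38.p13). Its RefSeq promoter window held none of the 4 strings. MRPL24 had 43.0, 46.9 and 44.8 CPM with RX-5902, against 106, 108 and 104 CPM with DMSO, a 2.36-fold lower level (log2 fold change -1.24, standard error 0.05, edgeR adjusted p = 2.02e-21). The groups were far apart and each spread over less than 5 CPM. MRPL17, which in bacteria lies near the mouth of the exit tunnel (chr11:6680385-6683340), had 27.8, 28.8 and 27.4 CPM with RX-5902, against 49.8, 54.5 and 51.0 CPM with DMSO (log2 fold change -0.89, standard error 0.06, edgeR adjusted p = 1.59e-15). Again no library of 1 group reached the other. Closer to the peptidyl transferase centre, MRPL3 was at 117, 112 and 106 CPM with RX-5902 and at 182, 161 and 185 CPM with DMSO (-0.66, standard error 0.05). MRPL18 was at 83.6, 81.9 and 81.6 CPM with RX-5902 and at 125, 134 and 124 CPM with DMSO (-0.63), and MRPL21 at 21.8, 22.3 and 23.7 CPM against 37.5, 37.3 and 33.1 CPM (-0.67). None of these groups overlapped.

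The proteins of the stalk, which draws translation factors to the ribosome, did not move together. MRPL12, the stalk protein itself (chr17:81703367-81707517), had 11.0, 11.4 and 13.3 CPM with RX-5902, against 21.8, 22.9 and 21.3 CPM with DMSO (log2 fold change -0.88, standard error 0.08, edgeR adjusted p = 6.52e-12). Of its exon bases 69.5% also belong to a gene model on the same strand that was listed at 0 in the control libraries, so its level is uncertain. MRPL11, at the base of the stalk, was at 46.4, 48.6 and 50.1 CPM with RX-5902 and at 74.8, 75.6 and 70.1 CPM with DMSO (-0.60). MRPL10, which anchors the stalk, had 50.7, 49.7 and 52.5 CPM with RX-5902, against 49.8, 46.9 and 44.0 CPM with DMSO, groups that overlapped. It was called higher by 0.12 (standard error 0.05, edgeR adjusted p = 0.0478), a call that was lost in 5 of the 6 fits that left out 1 library and kept without DMSO replicate 1.

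Members with other tasks in the large subunit took intermediate or small values. MRPL58, a peptidyl-tRNA hydrolase that frees stalled chains, fell by 0.46 on the log2 scale, with 22.2, 23.0 and 24.3 CPM with RX-5902 and 31.1, 32.2 and 32.4 CPM with DMSO. MRPL41, a member particular to mitochondria, fell by 0.46 as well. MRPL45, which ties the exit of the tunnel to the inner membrane, had 79.0, 76.8 and 75.1 CPM with RX-5902, against 86.8, 74.5 and 77.6 CPM with DMSO, with a log2 fold change of -0.05 (standard error 0.05, edgeR adjusted p = 0.391). The other members that were not called were MRPL39 (-0.14), MRPL22 (-0.13), MRPL54 (-0.10), MRPL34 (-0.09) and MRPL48 (-0.06) in the large and MRPS18A (-0.06) in the small subunit. All 7 had negative estimates.

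In the small subunit, MRPS12, the protein of the decoding centre known for streptomycin resistance in bacteria (chr19:38930944-38933168), with the ETS string in its promoter, had 39.4, 40.0 and 39.8 CPM with RX-5902, against 83.3, 79.9 and 75.6 CPM with DMSO (log2 fold change -1.002, standard error 0.05, edgeR adjusted p = 3.23e-18). The treated libraries lay within 1 CPM of each other. MRPS25, a protein particular to mitochondria (chr3:15009611-15065339), had 36.5, 33.9 and 32.6 CPM with RX-5902, against 70.6, 73.5 and 72.6 CPM with DMSO (-1.07, standard error 0.05, edgeR adjusted p = 1.61e-18). It shares 39.1% of its exon bases with NR2C2 on the opposite strand, at a mean of 18.3 CPM with DMSO. MRPS26 fell by 0.89 to 20.9, 22.3 and 22.5 CPM with RX-5902, against 39.8, 40.5 and 41.8 CPM with DMSO. MRPS5, whose bacterial counterpart guards accuracy at the mRNA entrance, was at 13.2, 13.996 and 14.3 CPM with RX-5902 and at 25.5, 22.4 and 24.5 CPM with DMSO (-0.80). MRPS30 was at 89.1, 88.2 and 85.8 CPM with RX-5902 and at 148, 138 and 146 CPM with DMSO (-0.71), and MRPS23 at 40.0, 40.0 and 36.5 CPM against 58.8, 59.4 and 62.8 CPM (-0.64). These were the 6 largest falls among small subunit members averaging 5 CPM or more, and no groups overlapped in any of the 6. At a lower level, MRPS17 had 2.12, 2.25 and 2.38 CPM with RX-5902, against 5.41, 5.46 and 5.21 CPM with DMSO (-1.25, standard error 0.14).

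Of the 3 genes of the MRPS18 family, copies of 1 ancestral gene, MRPS18B and MRPS18C were called lower with the drug and MRPS18A was not called. Differences between these genes were not tested. MRPS18C, which holds the place of the bacterial protein, fell by 0.20 and MRPS18B by 0.26, while MRPS18A had 26.5, 26.1 and 26.0 CPM with RX-5902, against 25.9, 30.5 and 25.4 CPM with DMSO (log2 fold change -0.06, edgeR adjusted p = 0.465). MRPS18A lies in the large subunit in structures of the human ribosome, as does MRPS30, and MRPS36 is now counted with a dehydrogenase complex of the TCA cycle. MRPS34, needed for a stable small subunit, fell by 0.61 and MRPS36 by 0.37. MRPS6 was the only small subunit member called higher, by 0.21 (edgeR adjusted p = 0.0156), with 17.8, 18.8 and 17.2 CPM with RX-5902 and 16.7, 15.1 and 14.9 CPM with DMSO. With MRPS18A and MRPS30 moved to the large subunit and MRPS36 left out, 42 of 50 large and 24 of 25 small subunit members fell.

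**Figure D2:**
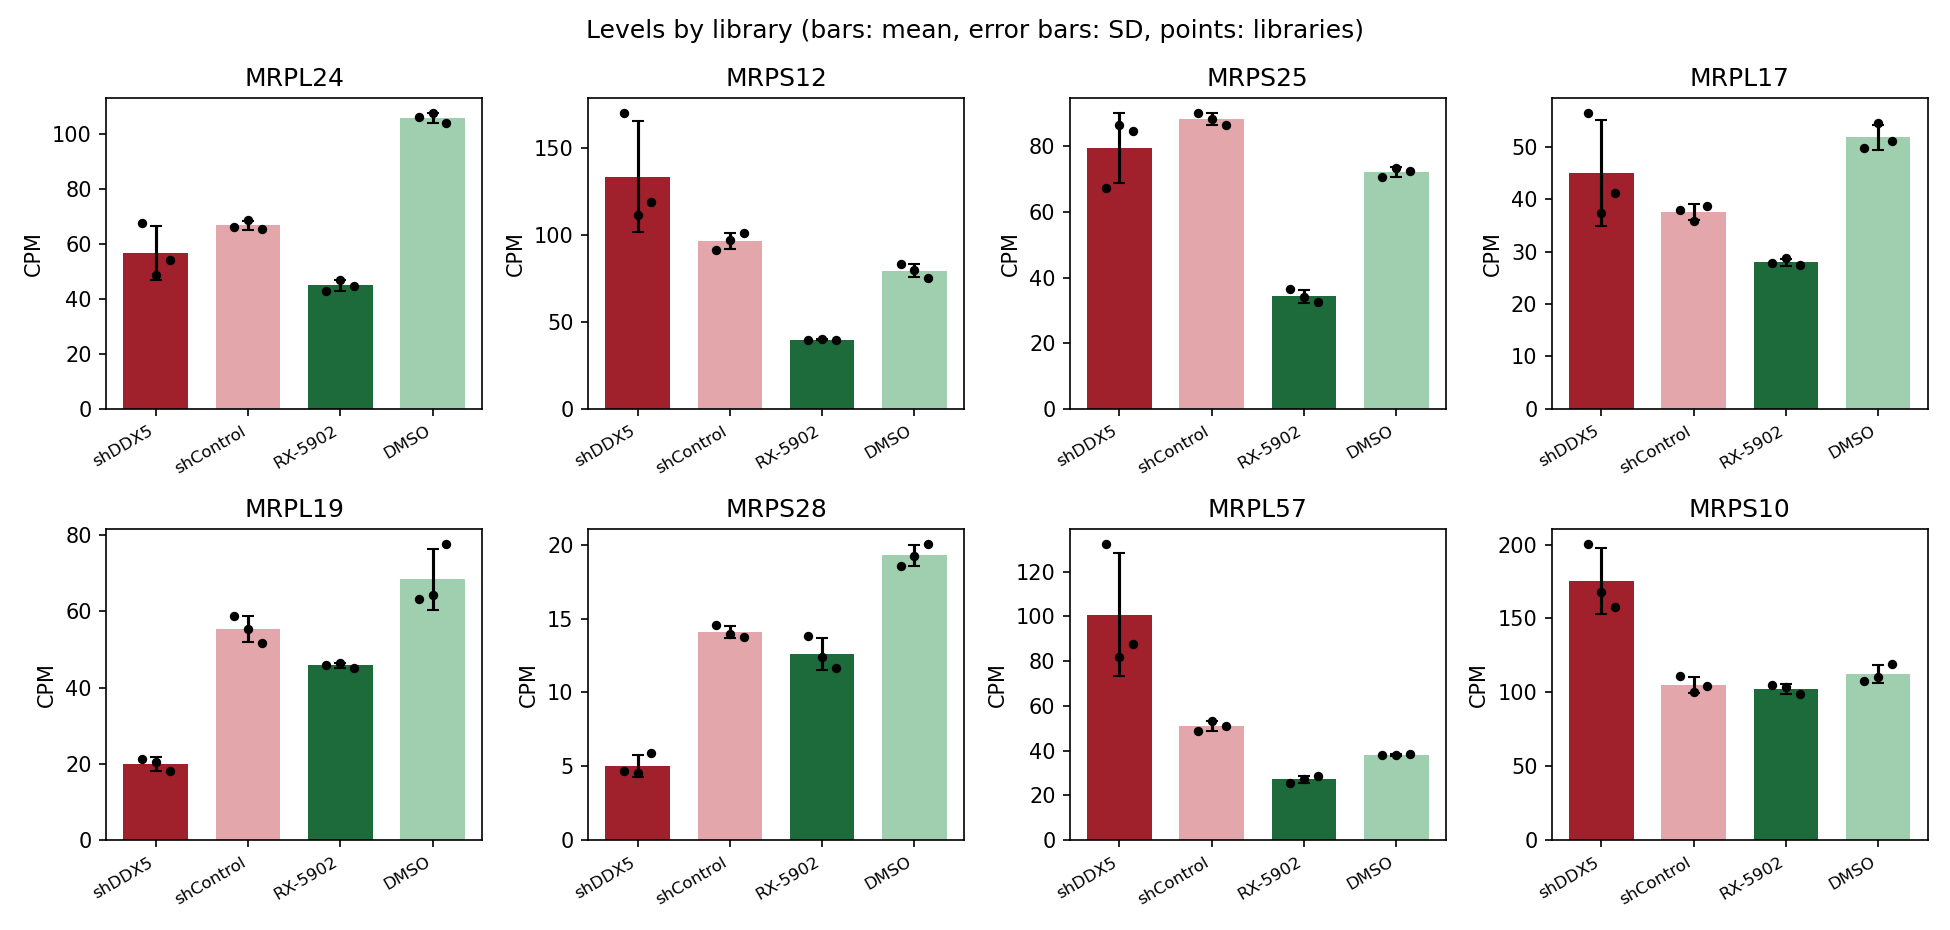
CPM (vertical axes, from 0) of 8 members in the shDDX5, shControl, RX-5902 and DMSO libraries (horizontal axes). Bars are means, error bars the SD and points the 3 libraries. In the upper row MRPL24, MRPS12, MRPS25 and MRPL17 are lower with RX-5902 than with DMSO, and in the lower row MRPL19 and MRPS28 are lower and MRPL57 and MRPS10 higher in shDDX5 than in shControl libraries. The 2 experiments were scaled separately.

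After 96 hours of DDX5 knockdown the members changed in both directions. Of 76 tested, 19 rose, 18 fell and 39 were not called, with a median log2 change of 0.01, where 28.4% of all 14463 genes tested rose and 28.3% fell. In the large subunit 11 of 48 rose and 15 fell (median 0.01), and in the small subunit 8 of 28 rose and 3 fell (median 0.06). Without shDDX5 replicate 1, 21 members rose and 37 fell, where 35.7% of all 14916 genes tested rose and 35.7% fell. The large subunit then had 13 risen and 25 fallen (median -0.14) and the small subunit 8 risen and 12 fallen (median -0.03). All 19 risen and all 18 fallen members kept their call without that library, while 19 others were then called lower and 2 others higher. The number of risen members was 10, 11 and 12 when shControl replicate 1, 2 or 3 was left out. No share over all genes is given for these 3 fits, so these counts cannot be set against one.

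The 2 deepest falls were in MRPL19, a protein at the face between the subunits in bacteria, and MRPS28 in the small subunit. MRPL19 (chr2:75646783-75690851) had 21.3, 20.6 and 18.0 CPM in shDDX5 libraries, against 58.8, 55.4 and 51.8 CPM in shControl libraries, a 2.77-fold lower level (log2 fold change -1.47, standard error 0.10, edgeR adjusted p = 1.28e-05). MRPS28 (chr8:79918717-80030289) had 4.66, 4.53 and 5.90 CPM in shDDX5 libraries, against 14.5, 13.9 and 13.8 CPM in shControl libraries (-1.48, standard error 0.13, edgeR adjusted p = 3.72e-05). For both, all shDDX5 libraries were far below the controls and replicate 1 was no exception, with -1.52 and -1.43 without it. MRPS28 shares 35.8% of its exon bases with a same-strand gene model listed at or close to 0.

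Further falls in the large subunit included MRPL32, whose maturation by a protease of the inner membrane is a step of ribosome assembly in yeast and mice. MRPL32 (chr7:42932376-42948958) had 31.8, 23.9 and 22.8 CPM in shDDX5 libraries, against 56.5, 57.9 and 55.6 CPM in shControl libraries (log2 fold change -1.11, standard error 0.13, edgeR adjusted p = 0.000176). MRPL11 at the stalk base was at 38.4, 26.9 and 24.5 CPM in shDDX5 and at 67.1, 65.4 and 61.0 CPM in shControl libraries (-1.11, standard error 0.16). MRPL39, particular to mitochondria, was at 9.66, 8.09 and 8.20 CPM in shDDX5 and at 18.0, 18.0 and 18.7 CPM in shControl libraries (-1.08, standard error 0.10). In each of the 3 genes replicate 1 was the highest shDDX5 library, yet below every control. MRPL3 (-0.63) and MRPL51 (-0.64), both among the most abundant members per length, fell too, as did MRPL38 (-0.65) and MRPL46 (-0.43) at the low end. The call of MRPL46 was lost without shControl replicate 1 or 2 and without shDDX5 replicate 2 or 3 (edgeR adjusted p = 0.112, 0.129, 0.0917 and 0.0603). MRPL51 shares 27.6% of its exon bases with NCAPD2 on the opposite strand. In the small subunit MRPS27, a protein with RNA-binding repeats, had 82.2, 75.2 and 76.9 CPM in shDDX5 libraries, against 109, 118 and 113 CPM in shControl libraries (-0.54, standard error 0.08), and -0.26 (edgeR adjusted p = 0.157) once a trend on gene length was taken out.

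Among the members that rose with the knockdown, MRPL57, a small protein particular to mitochondria (chr13:21176658-21179084), had 132, 82.0 and 87.9 CPM in shDDX5 libraries, against 48.8, 53.1 and 51.2 CPM in shControl libraries (log2 fold change 0.98, standard error 0.17, edgeR adjusted p = 0.00169). Replicate 1 was well above the other 2 shDDX5 libraries, and the change was 0.73 without it. MRPL40 was at 31.4, 21.2 and 21.4 CPM in shDDX5 and at 14.6, 13.2 and 11.2 CPM in shControl libraries (0.92, and 0.71 without replicate 1). MRPL41 was at 85.5, 48.7 and 52.6 CPM in shDDX5 and at 34.8, 36.0 and 33.0 CPM in shControl libraries (0.85, and 0.55 without replicate 1). In both genes every shDDX5 library was above every control.

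Among small subunit members MRPS10 (chr6:42206807-42217861) had 200.3, 168 and 158 CPM in shDDX5 libraries, against 111, 100.4 and 104 CPM in shControl libraries (log2 fold change 0.74, standard error 0.11, edgeR adjusted p = 0.000582, and 0.63 without replicate 1). MRPS31 was at 41.2, 35.1 and 32.1 CPM in shDDX5 and at 26.1, 24.2 and 24.1 CPM in shControl libraries (0.54). Neither gene had overlapping groups. MRPS17 was at 13.6, 7.81 and 8.46 CPM in shDDX5 and at 6.22, 5.03 and 5.48 CPM in shControl libraries, with a log2 fold change of 0.84 (edgeR adjusted p = 0.0121), 0.54 without replicate 1, and an adjusted p of 0.0521 without shControl replicate 2. MRPS12 was at 170.4, 112 and 119 CPM in shDDX5 and at 91.6, 97.2 and 101 CPM in shControl libraries (0.47, edgeR adjusted p = 0.0318), 0.26 without replicate 1, and its adjusted p was 0.122, 0.0940 and 0.0794 without shControl replicate 1, 2 and 3. The groups did not overlap, and replicate 1 was again the highest. MRPS18A (0.43), MRPS18C (0.37) and MRPS36 (0.42) were called higher as well. The calls of MRPS18C and MRPS36 were lost without any 1 of the 3 shControl libraries, with adjusted p of 0.0768, 0.141 and 0.163 for MRPS18C and of 0.117, 0.104 and 0.135 for MRPS36.

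Members with assigned roles that were not called in the knockdown were MRPL12 (0.52, edgeR adjusted p = 0.0539), MRPL10 (0.15), MRPL45 (0.10), MRPL58 (-0.28), MRPS18B (-0.11), MRPS30 (0.08) and MRPS34 (0.01). MRPL12 was called higher without any 1 of the 3 shDDX5 libraries, at 0.23, 0.62 and 0.67. Without replicate 1, MRPL58 (-0.46), MRPS18B (-0.27) and MRPS34 (-0.22) were called lower. In all, 11 members had an estimate above 0 with that library and below 0 without it. Of these MRPL9 (-0.19 without it), MRPL21 (-0.25), MRPL48 (-0.28), MRPS21 (-0.11) and MRPS34 were then called lower, and MRPL4, MRPL16, MRPL22, MRPL36, MRPL45 and MRPS16 were not called.

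Replicate 1 of shDDX5 held more of nearly every member than replicates 2 and 3. Its level minus the mean of the other 2 had a median of 0.43 on the log2 scale over the 76 members and was above 0 in 71. Over all genes tested its median was 0.00, and it was above 0 in 7241 of 14463. The median was 0.44 in the large subunit, with 46 of 48 above 0, and 0.38 in the small subunit, with 25 of 28 above 0. The 5 members below 0 were MRPS5 (-0.55), MRPL38 (-0.38), MRPS25 (-0.34), MRPS28 (-0.15) and MRPL46 (-0.05), and the excess was greatest in MRPL41 (0.76), MRPS17 (0.75) and MRPL12 (0.74). It was greater in shorter members: against the log10 of exon bases Pearson's r was -0.51 and Spearman's rho -0.43 across the 76 members, and -0.27 and -0.40 across all 14463 genes, which share the same 3 libraries. The members are short, with a median of 2544 exon bases against 4723 over all genes tested. With a smooth trend on gene length taken out of each library, 15 members rose and 23 fell in the knockdown, 9 and 17 in the large and 6 and 6 in the small subunit. In that fit 30.8% of all genes rose and 29.5% fell. The part of transcript length in the knockdown calls was otherwise not tested.

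The balance of the subunits was measured as the summed CPM per kilobase of large over small subunit members. It was 1.88, 1.75 and 1.77 in shDDX5 libraries, against 1.96, 1.91 and 1.90 in shControl libraries. All 3 shDDX5 values lay below all 3 control values, and the highest of them was replicate 1. With RX-5902 it was 1.94, 1.97 and 1.97, against 1.94, 1.93 and 1.90 with DMSO, so that the groups overlapped. The separation turned with the measure. From summed CPM the RX-5902 ratios (1.544, 1.567 and 1.586) lay above those with DMSO (1.540, 1.522 and 1.520), and from medians over members they did as well (1.11, 1.13 and 1.15 with RX-5902 and 1.07, 0.995 and 1.01 with DMSO). The shDDX5 ratios lay below the shControl ratios from summed CPM (1.56, 1.42 and 1.44 in shDDX5 and 1.61, 1.58 and 1.58 in shControl libraries) but overlapped them from medians (1.02, 0.985 and 0.999 in shDDX5 and 1.01, 1.13 and 1.08 in shControl libraries). The summed level itself was lower with RX-5902 in both subunits: the large subunit members summed to 2021, 2049 and 2050 CPM with RX-5902 and to 2735, 2713 and 2721 CPM with DMSO, and the small subunit members to 1309, 1307 and 1292 CPM against 1776, 1783 and 1790 CPM. In the knockdown the large subunit members summed to 3064, 2211 and 2256 CPM in shDDX5 libraries, against 2522, 2539 and 2546 CPM in shControl libraries, so that replicate 1 was above and replicates 2 and 3 were below every control. The small subunit members summed to 1965, 1561 and 1564 CPM in shDDX5 libraries, against 1567, 1603 and 1613 CPM in shControl libraries, with replicate 1 again above and the others below. No p-value was computed for these sums.

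The 2 perturbations did not order the members alike. Across the 76 members, knockdown and drug changes had a Pearson r of 0.03 and a Spearman rho of 0.10, across genes that share their libraries. Of the 18 members that fell in the knockdown 16 also fell with RX-5902, and of the 19 that rose 17 fell with RX-5902. Of the 39 not called in the knockdown, 34 fell and 2 rose with the drug. Without shDDX5 replicate 1, 33 of the 37 that fell in the knockdown and 19 of the 21 that rose also fell with RX-5902, where 67 of all 76 members fell. The difference between the changes (shDDX5 over shControl minus RX-5902 over DMSO) was called positive for 44 members and negative for 7 in 1 edgeR fit of all 12 libraries, where 24.1% of all 15386 genes were called positive and 28.6% negative. By subunit it was positive for 24 of 48 large and 20 of 28 small members and negative for 6 and 1. Without shDDX5 replicate 1 it was positive for 44 and negative for 15 of 77, where 28.4% of all 15794 genes were called positive and 32.0% negative. By subunit it was then positive for 24 large and 20 small members and negative for 12 and 3. The perturbations also differ in time, 96 against 6 hours, and kind, which cannot be told apart here.

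The 5 largest such differences all paired an estimate above 0 in the knockdown with a fall with the drug. They were 2.07 for MRPS17 (standard error 0.29), 1.458 for MRPS12 (0.18), 1.457 for MRPL57 (0.21), 1.38 for MRPL12 (0.24) and 1.38 for MRPL40 (0.23), with edgeR adjusted p between 1.40e-05 and 0.000226. Without shDDX5 replicate 1 they were 1.79, 1.25, 1.21, 1.10 and 1.18. In the other direction, named after their values were seen, stood MRPL39 at -0.96 (standard error 0.11), MRPL19 at -0.91 (0.13) and MRPS28 at -0.89 (0.14), each lower in the knockdown than with the drug relative to its own controls.

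**Figure D3:**
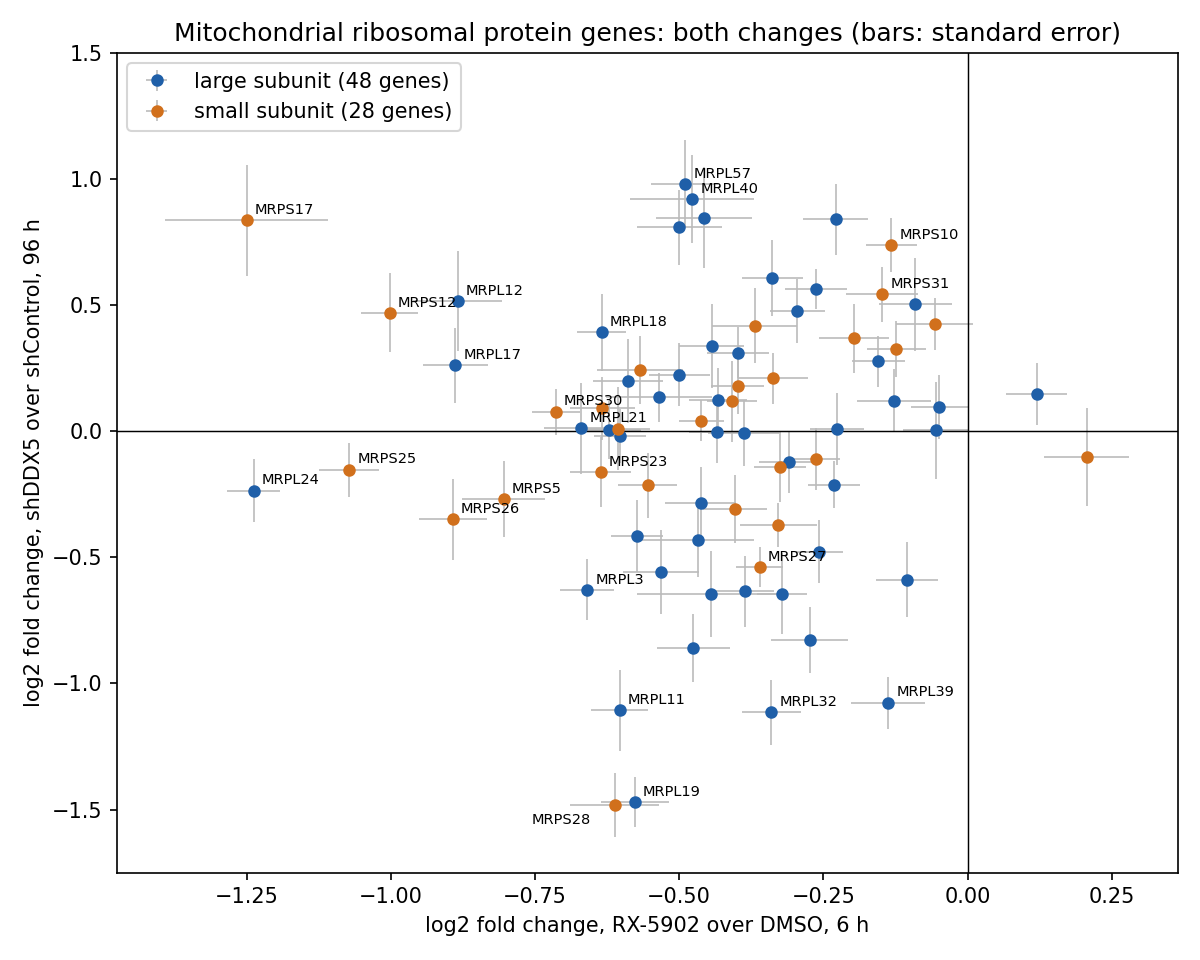
Log2 fold change of each tested member with RX-5902 over DMSO (horizontal axis) and with shDDX5 over shControl (vertical axis), large subunit in blue and small subunit in orange, with bars for the standard error. Nearly all points lie left of 0 on the drug axis, while on the knockdown axis they spread between -1.48 for MRPS28 and 0.98 for MRPL57.

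The 5 proteins of this ribosome with other names were DAP3, PTCD3, CHCHD1, AURKAIP1 and GADD45GIP1. All 5 fell with RX-5902, by 0.20, 0.35, 0.32, 0.21 and 0.43 on the log2 scale in that order, and none was called in the knockdown, where the estimates ran between -0.22 and 0.40. Without shDDX5 replicate 1, DAP3 (-0.33), PTCD3 (-0.13) and GADD45GIP1 (-0.29) were called lower. Of the members with a bacterial counterpart 42 of 47 fell and 2 rose with RX-5902 (median -0.43). Of those particular to mitochondria 25 of 29 fell and 0 rose (median -0.40), where 31.9% of all genes fell and 32.2% rose. In the knockdown 10 of the 47 with a counterpart rose and 10 fell, and 9 of the 29 without rose and 8 fell, where 28.4% of all genes rose and 28.3% fell. Without shDDX5 replicate 1 the counts were 12 and 23 of 47 with a counterpart and 9 and 14 of 29 without, where 35.7% of all genes rose and 35.7% fell.

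Of 31 tested factors that assemble this ribosome or modify its rRNA, 24 fell and 1 rose with RX-5902 (median -0.37). In the knockdown 6 of them rose and 10 fell (median -0.12), or 8 and 15 without shDDX5 replicate 1. Over all genes tested, 31.9% fell and 32.2% rose with RX-5902. In the knockdown 28.4% of all genes rose and 28.3% fell, or 35.7 and 35.7% without that library. The knockdown shares of this list were 19.4% risen and 32.3% fallen, or 25.8 and 48.4% without that library. RBFA, which helps to finish the small subunit rRNA, was at 11.0, 11.7 and 11.6 CPM with RX-5902 and at 26.1, 26.5 and 24.3 CPM with DMSO (log2 fold change -1.16, edgeR adjusted p = 1.14e-15). RBFA was also at 8.63, 8.04 and 8.82 CPM in shDDX5 and at 21.7, 22.0 and 22.9 CPM in shControl libraries (-1.38, edgeR adjusted p = 1.06e-05). In both experiments its groups stood far apart. MRM1, a methyltransferase of the large subunit rRNA, was at 9.55, 9.15 and 10.2 CPM with RX-5902 and at 24.0, 27.7 and 25.1 CPM with DMSO (-1.41), with -0.31 (edgeR adjusted p = 0.0790) in the knockdown. MIEF1, whose transcript also encodes a microprotein that joins the assembling large subunit, fell by 0.85 with RX-5902. NOA1, a GTPase of small subunit assembly, was the 1 that rose with RX-5902, by 0.45, and its change was 0.50 in the knockdown. In the knockdown METTL17, a small subunit assembly factor, fell by 0.72 and MTERF4, which brings an rRNA methyltransferase to the large subunit, by 0.65.

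Of 20 mitochondrial translation factors and related genes, 15 fell and 0 rose with RX-5902 (median -0.33), where 31.9% of all genes fell. In the knockdown 8 of the 20 rose and 6 fell (median 0.12), where 28.4% of all genes rose and 28.3% fell. Without shDDX5 replicate 1 it was 9 and 6, where 35.7% of all genes rose and 35.7% fell. SLIRP, which stabilises mitochondrial mRNAs, was at 14.9, 15.1 and 17.7 CPM with RX-5902 and at 28.2, 27.6 and 28.6 CPM with DMSO (log2 fold change -0.83). MTO1, a tRNA modifier, fell by 0.62 and the elongation factor GFM1 by 0.51 with the drug. In the knockdown MTRFR, a factor of ribosome rescue, was at 40.9, 33.4 and 35.1 CPM in shDDX5 and at 18.9, 18.6 and 18.6 CPM in shControl libraries (0.96, edgeR adjusted p = 9.10e-05), RMND1, which supports mitochondrial translation, rose by 0.73 and the tRNA modifier TRMU fell by 0.53.

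Among the RNAs made from mitochondrial DNA, 12 of 13 mRNAs and 0 of 2 rRNAs were called lower with RX-5902. In the knockdown no RNA of either kind was called lower, with or without shDDX5 replicate 1. Of 2 rRNAs, MT-RNR2 of the large subunit was at 6068, 5843 and 5799 CPM with RX-5902 and at 4440, 4476 and 4626 CPM with DMSO (log2 fold change 0.39, edgeR adjusted p = 9.59e-11), and MT-RNR1 of the small subunit was at 382, 376 and 362 CPM with RX-5902 and at 363, 371 and 362 CPM with DMSO (0.03, edgeR adjusted p = 0.475). Whether rRNA was depleted before sequencing is not given in the sources used here. In the knockdown both rose, MT-RNR2 by 0.56 and MT-RNR1 by 0.36, and by 0.48 and 0.31 without shDDX5 replicate 1. With a length trend removed MT-RNR2 had 0.32 (edgeR adjusted p = 0.0278) and MT-RNR1 0.04 (edgeR adjusted p = 0.681), so that the call of MT-RNR1 was lost. Of the 13 protein genes of mitochondrial DNA, 12 fell and 0 rose with RX-5902 (median -0.24). In the knockdown 5 of the 13 rose and 0 fell (median 0.42), or 7 and 0 (median 0.17) without shDDX5 replicate 1. With a length trend removed 1 of these 13 was called higher in the knockdown and 0 lower, with a median of 0.08. Cytosolic ribosomal protein genes, set beside them, had 11 risen and 9 fallen of 79 with RX-5902 (median 0.01). In the knockdown they had 3 and 3 (median 0.10), or 13 and 35 without shDDX5 replicate 1 and 8 and 7 with the length trend removed. Over all genes tested, 32.2% rose and 31.9% fell with RX-5902, and 28.4 and 28.3% in the knockdown. The knockdown shares were 35.7 and 35.7% without shDDX5 replicate 1, and 30.8 and 29.5% with the length trend removed.

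**Figure D4:**
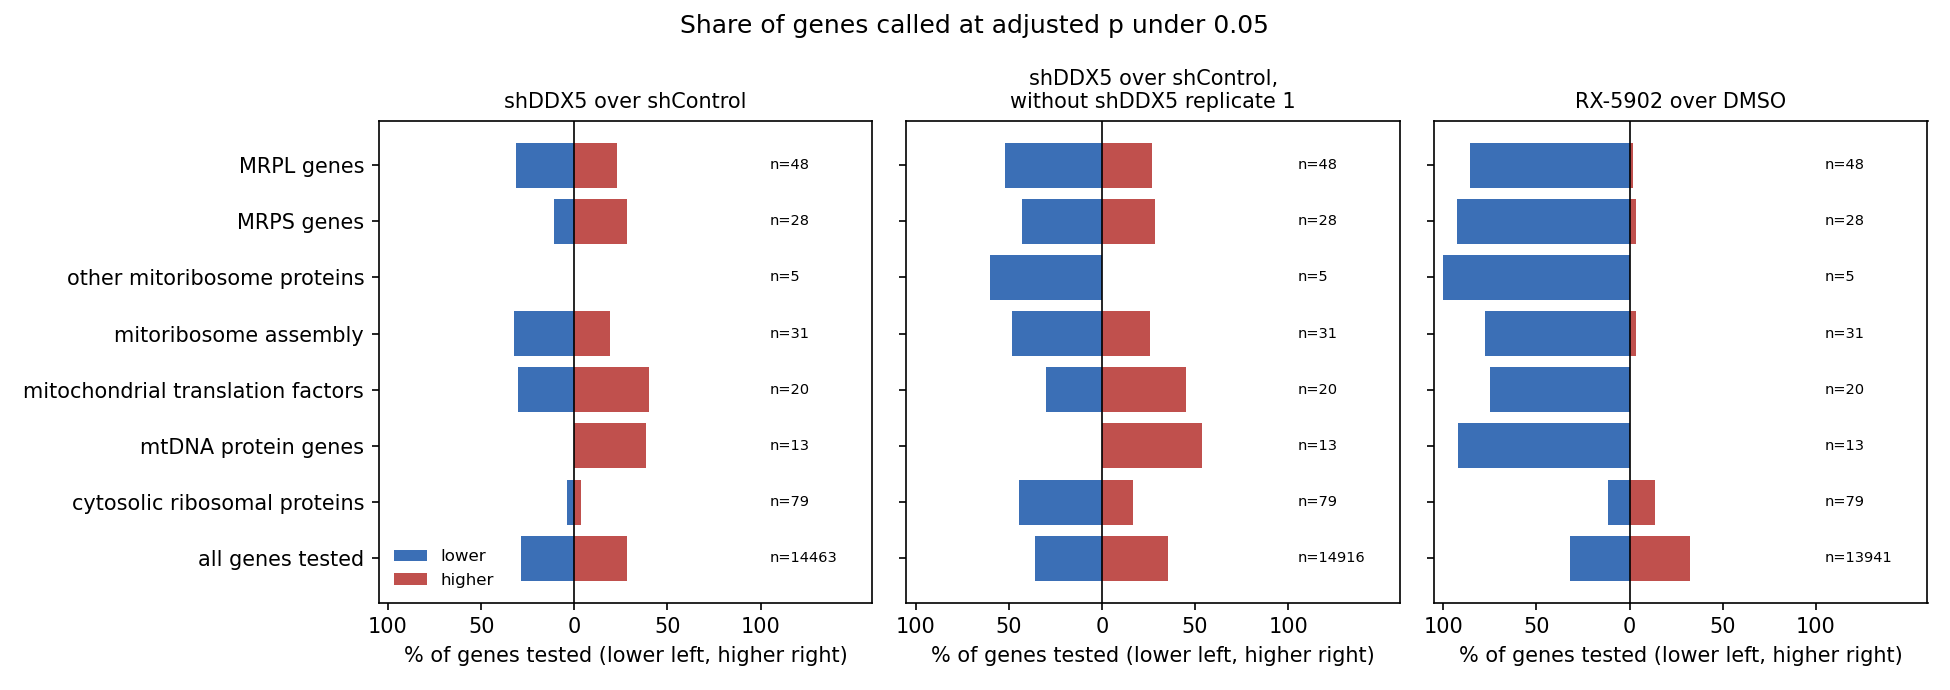
Share of the genes tested in each list that was called higher (red, to the right) and lower (blue, to the left), in percent (horizontal axes), for shDDX5 over shControl with and without shDDX5 replicate 1 and for RX-5902 over DMSO, with the number tested at the right of each bar. With RX-5902 the MRPL and MRPS genes have 85.4 and 92.9% called lower, against 31.9% of all genes and 11.4% of cytosolic ribosomal protein genes.

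The members were last grouped by the promoter strings described above. For comparison, 31.9% of all genes tested fell with RX-5902. In the knockdown 28.4% of all genes rose and 28.3% fell, or 35.7 and 35.7% without shDDX5 replicate 1. With RX-5902, 25 of 28 tested members with the ETS string fell and 34 of 39 without it, with medians of -0.42 and -0.44. For the YY1 string it was 10 of 12 with and 49 of 55 without, for the NRF1 string 11 of 14 and 48 of 53, and for the E-box 4 of 6 and 55 of 61. In the knockdown 10 members rose and 5 fell of 28 with the ETS string, and 8 and 9 of 39 without, with medians of 0.08 and 0.01. For the NRF1 string it was 3 and 1 of 14 with and 15 and 13 of 53 without, with medians of 0.22 and 0.00. For the YY1 string it was 2 and 4 of 12 and 16 and 10 of 55, with medians of -0.02 and 0.04. For the E-box it was 2 and 1 of 6 and 16 and 13 of 61, with medians of 0.16 and 0.01. Leaving out shDDX5 replicate 1, the ETS counts were 10 and 14 of 28 with and 10 and 17 of 39 without, with medians of -0.08 and -0.06. The NRF1 counts were then 5 and 3 of 14 with and 15 and 28 of 53 without. The YY1 counts were 2 and 6 of 12 and 18 and 25 of 55, and the E-box counts 2 and 1 of 6 and 18 and 30 of 61.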

How the data were processed

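Total RNA of MOLM-14 cells was sequenced in 12 libraries. The deposited count tables, 1 for each experiment, hold whole-number counts of reads per gene with gene positions and exon bases, as the file headers show. Per the submitters' processing notes, the build was GRCh38.p13 and the tools were STAR 2.7.9a, featureCounts (Subread 2.0.3), Picard 2.8.0, Trim Galore 0.6.7, DESeq2 1.46.0 and R 4.4.2. How shared exons were counted, whether strand was used and which annotation release was taken is not given in the sources used here. Any reads lost or gained by genes with shared exons or pseudogene copies could shift single members.

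Each experiment was fitted over all its genes with edgeR 4.0.16 in R 4.3.3 (TMM scaling, filterByExpr, 2-sided quasi-likelihood F test, Benjamini-Hochberg adjustment, threshold 0.05), with group as the only term. The standard error was taken as the size of the log2 fold change over the square root of F. The difference between the experiments came from 1 fit of all 12 libraries with 4 group means. Members were matched by Ensembl ID to symbols and gene classes in the reference tables. Levels per length used the exon bases of the count tables.

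The named members were those with the 6 largest called changes per subunit and experiment at a mean of at least 5 CPM, the 5 largest differences between experiments, the 3 highest and 3 lowest levels per subunit, and members with set roles, beside partner lists. The members and lists were chosen with earlier results of these data known, so no p-value was given for a list. The fitting steps were tested on simulated data, with the same spread set for every gene and no outlying library. Those data therefore cannot show how the fits handle a library such as shDDX5 replicate 1. Alternatives were other scalings and filters, DESeq2 1.42.0, a fold threshold of 1.2, a length trend, the replicate number as a block, and leaving out each library. CPM and sums over members describe shares of a library. Total counts of 17603589 to 20367575 per library set the counting error, which is largest for members below 5 CPM.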

Additional observations from a re-analysis of the deposited data

How the results depend on the processing

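The 67 members called lower with RX-5902 kept a count between 65 and 69 when 1 library was left out. The few called higher did not: over such fits there were 0 to 2 in all, 0 to 1 large and 0 to 2 small, and the counts lower were 41 to 43 large and 23 to 26 small, with medians of -0.46 to -0.40 and -0.44 to -0.39. With DESeq2 size factors 1 member in all and 0 large were called higher. With no filter, with DESeq2, in 1 fit of all 12 libraries and against a fold of 1.2 there were 0 in all, 0 large and 0 small. That fold left 17 small members called lower, where it called 18.8% of all genes lower. For the other fits named so far here no share over all genes is given, so their counts cannot be set against one. The RX-5902 median of the large subunit was -0.38 with total counts as scaling and -0.40 with a length trend removed, with that and the replicate block, and in 1 fit of all 12 libraries. The small subunit median was -0.34 with total counts and -0.37 in 1 fit of all 12 libraries. Without members that share exon bases, 37 genes were left. With RX-5902 1 of them rose and 31 fell, 19 of those large and 12 small, with 0 small higher. There 32.2% of all genes rose and 31.9% fell. In the knockdown 9 rose and 5 fell, 5 and 5 large and 4 and 0 small, where 28.4% of all genes rose and 28.3% fell. Without shDDX5 replicate 1 the balance turned, with 10 risen and 16 fallen, where 35.7% of all genes rose and 35.7% fell.

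Knockdown counts had wider ranges over the fits without 1 library: 10 to 21 members were higher and 15 to 37 lower. In the large subunit it was 6 to 13 and 12 to 25, and in the small subunit 3 to 8 and 3 to 12. The medians of the large and the small subunit were -0.14 to 0.11 and -0.03 to 0.12. Of these fits only that without shDDX5 replicate 1 has a share over all genes given here. The other counts cannot be set against one. The 37, 25 and 12 lower came without shDDX5 replicate 1, where 35.7% of all genes were called lower. The difference between experiments then had 44 members higher and 15 lower, and 11 members turned their sign in the knockdown, among them MRPL21 (-0.25), MRPS21 (-0.11) and MRPS34 (-0.22). Over all fits without 1 library MRPL21 ran between -0.25 and 0.15, MRPS21 between -0.11 and 0.24 and MRPS34 between -0.22 and 0.14. Against a fold of 1.2, 10 members were higher in the knockdown, 7 large and 3 small. No share over all genes is given here for that test in the knockdown, so this count cannot be set against one. The same holds below for counts with total counts, with no filter, with the replicate block and in 1 fit of all 12 libraries. In the small subunit 5 were higher with total counts, with no filter, and with a length trend removed with the replicate block. The small members lower were 6 with total counts, 6 with the length trend removed, 5 with that and the replicate block, and 5 in 1 fit of all 12 libraries. The knockdown medians lie near 0 and their sign changes with the scaling: with total counts, which shift the median of all genes by -0.09, they were -0.09 for the large and -0.03 for the small subunit. The cause of these shifts was not tested.

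The ratio of large over small subunit was 1.47 in shDDX5, 1.59 in shControl, 1.57 in RX-5902 and 1.53 in DMSO libraries from summed CPM, and 1.00, 1.07, 1.13 and 1.03 in the same groups from medians over members. Replicate numbers were not found to pair the libraries: same-numbered libraries had correlations of deviations of -0.046, -0.0998 and 0.046 in the knockdown and -0.063, 0.016 and -0.076 with RX-5902. With the replicate block 17 members rose and 17 fell in the knockdown, and 1 rose, 0 of them large, and 65 fell with RX-5902. No share over all genes is given for these fits, so these counts cannot be set against one.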
